A study of Homo sapiens with 5 samples.

Results

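Metallothioneins are small cysteine-rich proteins that hold zinc and copper, and the genes described here are a group of them together with 3 genes that set the cell's zinc level. The list names 10 genes: the metallothioneins MT1A, MT1E, MT1F, MT1G, MT1M, MT1X and MT2A, the zinc-sensing transcription factor MTF1, the zinc exporter SLC30A1 and the zinc importer SLC39A10. They were chosen by name from earlier results of the same comparison, so their differences between groups are given as a description, with no test of their own. Ensembl identifiers were matched to symbols through GENCODE 29. Of the 30631 genes in the files, 9 were on the list, and MT1M was not analysed here.

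The RNA came from COV434 cells, a line that the labels call a human ovarian granulosa tumour cell. The 2 control libraries carried the treatment label control, and the 3 others came from cells given 3-nitropropanoic acid (3-NP), an irreversible inhibitor of succinate dehydrogenase in the respiratory chain. The labels give neither dose, time nor culture conditions, and it is not stated whether each library had its own culture, so a p-value here covers only how these libraries spread, which may be technical. The cell line field reads COV434 for the first control and counts up to COV438 over the 5 samples, while every title names COV434. Levels are in FPKM, which scales reads by gene length and library depth, and fitted changes are on the log2(FPKM + 1) scale, which understates changes of low genes. The depths recovered from the values were 17837800 to 18883200 reads per library. Of 10 granulosa cell markers 5 reached 1 FPKM in some library, led by NR5A1 at 21.9 to 24.9 FPKM in controls and 11.4 to 14.1 in 3-NP cells. FOXL2 was at 5.50 to 6.90 and 2.33 to 2.71 FPKM, INHBA at 5.17 to 6.71 and 3.97 to 5.17, AMH at 0.866 to 1.19 and 1.11 to 1.23, and GATA4 went the other way, at no more than 2.12 in controls and 2.46 to 2.81 with 3-NP. FSHR, CYP19A1 and WT1 were at 0 in the controls and at most 0.0753 FPKM with 3-NP. Summed stromal collagen and matrix markers were at 925 and 926 FPKM in the controls and 166 to 350 in 3-NP cells. COL1A1 and COL1A2 made up most of that sum. DCN of the same list went the other way, at 0.711 to 0.868 and 1.21 to 1.26 FPKM, and LUM overlapped. Summed epithelial markers were at 401 to 483 and 46.4 to 106 FPKM. In that sum KRT18 was at 382 to 460 FPKM in controls and 33.7 to 58.5 with 3-NP. KRT8 overlapped, at 17.7 to 21.9 and 12.4 to 46.4 FPKM. EPCAM, CDH1 and KRT19 stayed below 1 FPKM in every library. Leukocyte sums were at most 0.453 and endothelial sums at most 0.454 FPKM. The part of these shifts in the results below was not tested, and in bulk RNA fewer cells of a type and less RNA per cell cannot be told apart.

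Free zinc in the cell is kept low by binding to metallothioneins and by transporters. MTF1 binds zinc through its zinc fingers, moves to the nucleus and binds metal response elements, short DNA motifs that lie upstream of metallothionein genes and of SLC30A1. SLC30A1 carries zinc out of the cell across the plasma membrane, and SLC39A10 carries it in. In mouse and zebrafish, MTF1 is also known to repress the gene for this importer. Metallothioneins are also induced by cadmium, copper, glucocorticoids and oxidative stress.

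The 7 metallothionein genes of the list lie in a single cluster on chromosome 16 (GRCh38, positions 56608199 to 56684196, 75998 bases), with 6 on the plus strand and MT1G on the minus strand. MT2A opens the cluster (56608199 to 56609497), followed by MT1E (56625475 to 56627112), MT1M (56632233 to 56633986), MT1A (56638666 to 56640087), MT1F (56657694 to 56660698), MT1G (56666731 to 56668065) and MT1X (56682424 to 56684196). MTF1 is on chromosome 1 (37809567 to 37859620, minus strand), SLC30A1 on chromosome 1 (211571568 to 211578742, minus strand) and SLC39A10 on chromosome 2 (195575977 to 195737702, plus strand).

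The upstream sequences of MT2A, MT1X and SLC30A1 are shown because matches to the core of the motif that MTF1 binds lie in them. Each run is the 250 bases before the annotated start of transcription, 5′ to 3′ on the gene's strand, from RefSeq's promoter windows (GRCh38.p14). RefSeq and GENCODE place the starts differently. The RefSeq start of MT2A, 56608584, and that of MT1X, 56682470, lie inside the GENCODE spans given above, and that of SLC30A1, 211579161, lies outside its span, upstream of the gene. Capitals mark the core of the metal response element, TGCACNC or TGCGCNC, on either strand. MT2A is chr16:56608334-56608583 (plus strand), MT1X is chr16:56682220-56682469 (plus strand) and SLC30A1 is chr1:211579162-211579411 (minus strand).

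MT2A: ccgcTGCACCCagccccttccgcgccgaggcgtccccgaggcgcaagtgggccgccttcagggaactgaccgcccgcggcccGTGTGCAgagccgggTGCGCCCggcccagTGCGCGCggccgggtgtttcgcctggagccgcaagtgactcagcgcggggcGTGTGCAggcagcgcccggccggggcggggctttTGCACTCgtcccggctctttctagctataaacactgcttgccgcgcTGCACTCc

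MT1X: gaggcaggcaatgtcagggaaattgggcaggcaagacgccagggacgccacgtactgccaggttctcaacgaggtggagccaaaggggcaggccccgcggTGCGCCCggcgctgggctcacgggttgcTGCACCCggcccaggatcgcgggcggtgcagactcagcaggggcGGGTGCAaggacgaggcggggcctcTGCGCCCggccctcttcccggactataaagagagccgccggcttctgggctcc

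SLC30A1: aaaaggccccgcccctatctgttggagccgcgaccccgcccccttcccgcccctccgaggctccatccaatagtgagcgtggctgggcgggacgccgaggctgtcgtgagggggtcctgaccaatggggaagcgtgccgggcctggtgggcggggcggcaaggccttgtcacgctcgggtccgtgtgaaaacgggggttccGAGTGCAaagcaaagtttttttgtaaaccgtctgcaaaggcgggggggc

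MT2A held 7 cores in these 250 bases and 1 more in the 50 bases after the start, so 8 in the whole window. MT1X held 4, all upstream, and SLC30A1 held 2, of which 1 was upstream. At least 1 core was found in 29.6% of 35116 promoter windows of the same length, at least 3 in 2.30%, and 8 or more in 0.0199%. As many as in MT1X were found in 0.601% of windows and as many as in SLC30A1 in 8.60%. MTF1 had none, and SLC39A10, with 2 annotated starts, had 0 and 1. Promoter windows were found for 5 of the 10 genes, namely MT2A, MT1X, MTF1, SLC30A1 and SLC39A10. Windows of 3 further metallothionein genes were also searched, and MT1H held 8 cores, MT1B 3 and MT4 3. A core on the gene's strand began 53 or 54 bases before the start in MT2A, MT1X, MT1H and MT1B. These are matches of letters, and binding was not measured.

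**Figure D1:**
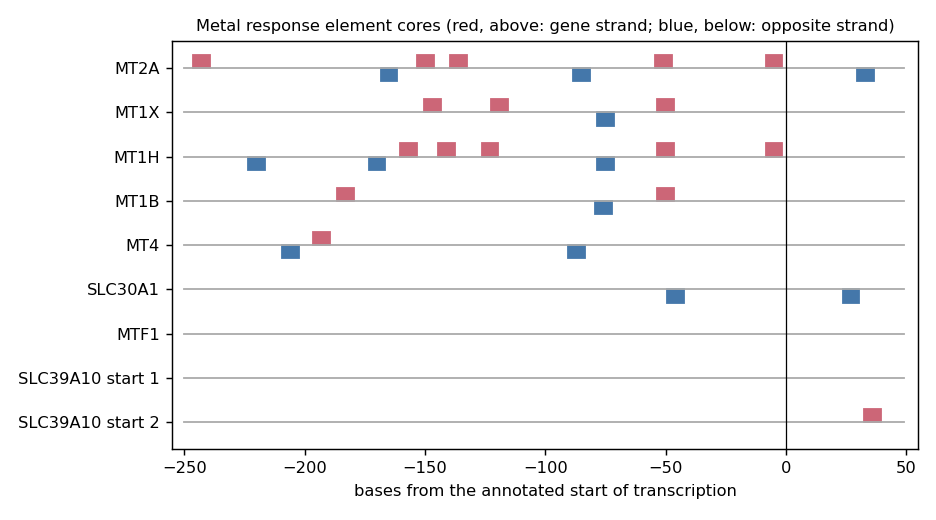
Positions of metal response element cores in promoter windows of 250 bases before to 50 bases after the annotated start (x axis, bases from the start; each row is 1 window, red boxes on the gene's strand, blue boxes on the opposite strand). MT2A and MT1H hold 8 cores each, MT1X 4, SLC30A1 2, and the windows of MTF1 and SLC39A10 hold 0 or 1.

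MT2A, the most abundant metallothionein in these cells, was several times higher with 3-NP. Its level was 402 and 507 FPKM in the control libraries and 1641, 1746 and 1775 FPKM in the 3-NP libraries. The 3-NP libraries lay close together and far above both controls. The means were 455 ± 74.4 (SD, n = 2) and 1720 ± 70.8 FPKM (SD, n = 3), a ratio of 3.78, and the fitted change was 1.93 ± 0.18 (SE) on the log2(FPKM + 1) scale. By level MT2A ranked 70th and 54th among all genes in the controls and 20th, 19th and 18th in the 3-NP libraries. Its reads made up 0.0522% and 0.0659% of the control libraries and 0.213%, 0.227% and 0.231% of the 3-NP libraries.

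MT1E, the next most abundant metallothionein, was at 75.1 and 79.2 FPKM in controls. In the 3-NP libraries it was at 102, 175 and 181 FPKM. All 3 were above both controls, but replicate 1 was much nearer to the controls than replicates 2 and 3 were. The ratio of means was 1.98 (77.2 ± 2.88 against 152 ± 44.2 FPKM, SD, n = 2 and 3), with a fitted log2 change of 0.93 ± 0.26 (SE).

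MT1X was almost unread in control cells and clearly present with 3-NP. The controls gave 0.0301 FPKM, which is 1 read, and 0 FPKM, which allows up to 0.0949 FPKM at 3 reads. The 3-NP libraries gave 6.09, 17.9 and 18.1 FPKM, from 204, 592 and 604 reads. The 95% Poisson interval of replicate 1, 5.29 to 6.99 FPKM, lay far below those of replicates 2 and 3, 16.5 to 19.4 and 16.7 to 19.6 FPKM. Over the groups, 1400 reads against 1 gave a ratio of 909 at equal depth, with an exact 95% interval of 163 to 35921. The fitted log2(FPKM + 1) change was 3.75 ± 0.41 (SE), which depends on the pseudocount and was 6.79 with a pseudocount of 0.1. Such intervals cover counting error only.

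MT1A showed the same order at a much lower level. It was at 0.135 FPKM (1 read) and 0 FPKM in controls and at 2.67, 2.57 and 2.82 FPKM in the 3-NP libraries, from 20, 19 and 21 reads. The 3-NP libraries did not differ from each other by more than counting error, and none overlapped the controls. With 60 reads against 1 the ratio at equal depth was 38.9, with an exact 95% interval of 6.73 to 1564 that covers counting error only. The fitted log2 change was 1.79 ± 0.14 (SE), and 4.18 with a pseudocount of 0.1.

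MT1F stayed low in both groups. It was at 0.339 and 0.475 FPKM in controls and at 0.897, 1.73 and 0.956 FPKM with 3-NP, from 12 and 16 reads against 32, 61 and 34. All 3-NP libraries were above both controls, with replicate 2 the highest. The ratio of reads at equal depth was 2.94 (exact 95% interval 1.94 to 4.61, which covers counting error only and not the spread between libraries).

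MT1G was at the limit of detection everywhere. It had no read in either control or in 3-NP replicate 1, and 3 reads and 1 read in 3-NP replicates 2 and 3, at 0.214 and 0.0708 FPKM. A level of up to 0.212 to 0.224 FPKM is allowed by 0 reads, so no fold is given and a difference was not detectable at this depth.

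**Figure D2:**
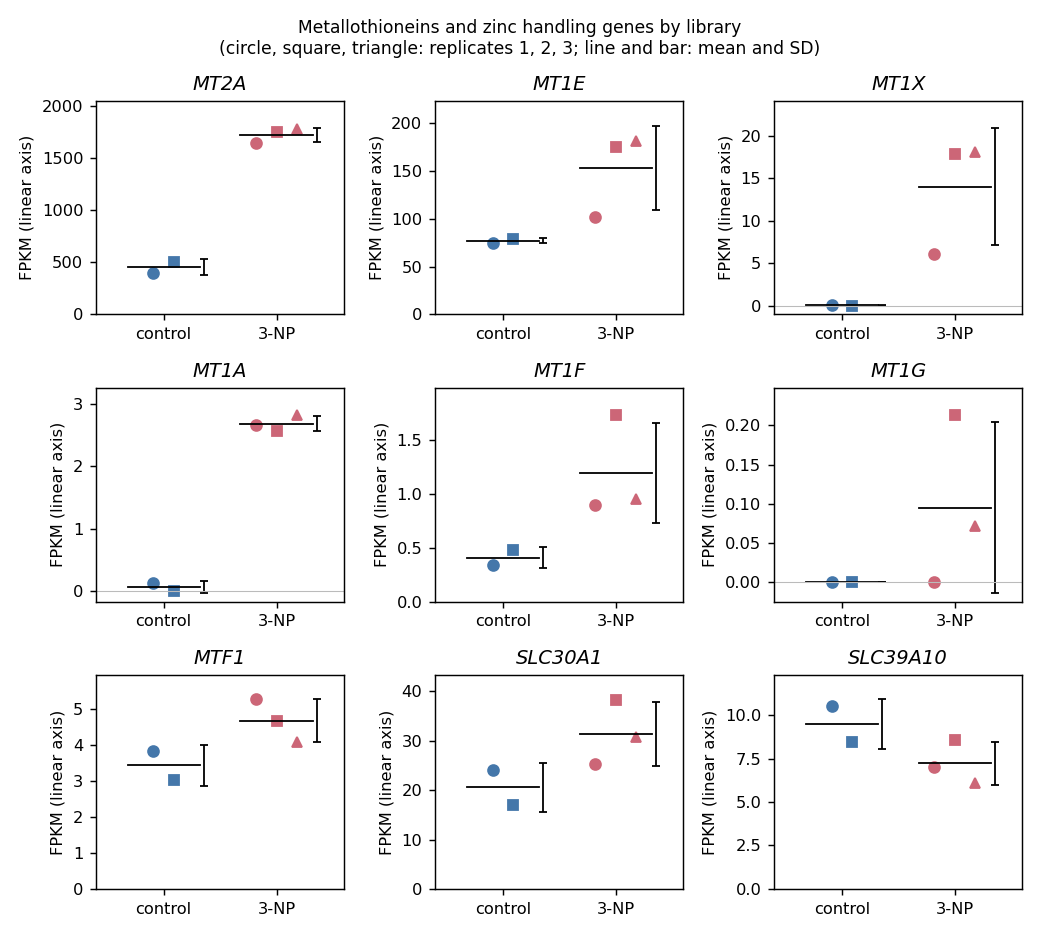
Level of each gene in FPKM (linear y axes, 1 panel per gene) in 2 control (blue) and 3 3-NP libraries (red), with the group mean as a line and the SD as a bar. MT2A, MT1E, MT1X, MT1A, MT1F, MTF1 and SLC30A1 have every 3-NP library above both controls, SLC39A10 and MT1G overlap, and MT1X and MT1E have 3-NP replicate 1 below replicates 2 and 3.

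MTF1, the factor that switches on metallothionein genes, differed little between the groups. It was at 3.82 and 3.03 FPKM in controls and at 5.27, 4.66 and 4.08 FPKM with 3-NP. The lowest 3-NP library was just above the higher control. The means were 3.42 ± 0.563 (SD, n = 2) and 4.67 ± 0.595 FPKM (SD, n = 3), a ratio of 1.36 (fitted log2 change 0.36 ± 0.16 SE). Replicate 1 was the highest of the 3-NP libraries for MTF1, and the lowest for MT2A, MT1E and MT1X.

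The exporter SLC30A1 was at 24.1 and 17.0 FPKM in controls and at 25.2, 38.2 and 30.8 FPKM with 3-NP. The lowest 3-NP library, replicate 1, was hardly above the higher control. The ratio of means was 1.53 (20.5 ± 5.01 against 31.4 ± 6.53 FPKM, SD, n = 2 and 3; fitted log2 change 0.59 ± 0.22 SE).

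The importer SLC39A10 was at 10.5 and 8.45 FPKM in controls and at 7.02, 8.56 and 6.08 FPKM with 3-NP. Here the groups overlapped, since 3-NP replicate 2 was above the lower control. The means were 9.47 ± 1.45 and 7.22 ± 1.25 FPKM (SD, n = 2 and 3), with a fitted log2 change of −0.35 ± 0.18 (SE).

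In the fit across all genes, 7 of the 9 genes with values passed the low-value filter of 1 FPKM in at least 2 libraries. MT1F and MT1G did not, and MT1A and MT1X passed only through the 3-NP libraries, which forces a difference on them. Of these 7, 4 (MT1A, MT1E, MT1X and MT2A) were called higher at limma's adjusted threshold of 0.05 and 0 were called lower. MTF1, SLC30A1 and SLC39A10 were not called. SLC39A10 was called in 0 of 13 alternatives, MTF1 in 2 (quantile normalization and length trend removed) and SLC30A1 in 3 (median-of-ratios scaling, length trend removed and without 3-NP replicate 1). Over all 11858 genes tested 40.8% were called, 15.5% higher and 25.2% lower. Nothing is read from the count, since the genes were picked from this comparison. The MT1E call was absent without control replicate 1, without control replicate 2, without 3-NP replicate 2 and with no low-value filter. Of the 9 genes, 7 had every 3-NP library above both controls and 0 had every one below. Among all genes tested, which do not include MT1F and MT1G, those shares were 25.8% and 38.4%. Nothing is read from this count either. The median fitted change of all genes tested was −0.11, and with median-of-ratios scaling it was −0.01. That scaling moved MT2A to 2.05, MT1E to 1.05, SLC30A1 to 0.71 and SLC39A10 to −0.24.

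**Figure D3:**
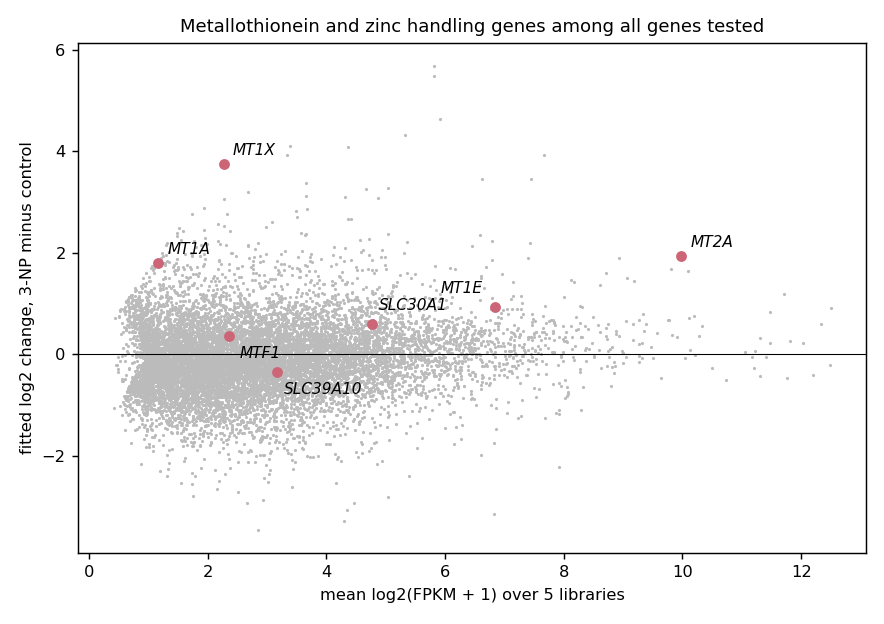
Fitted log2 change on log2(FPKM + 1), 3-NP minus control (y axis), against the mean log2(FPKM + 1) over the 5 libraries (x axis) for the 11858 genes tested (grey), with the 7 genes past the filter in red. MT1X is at 3.75 and MT2A at 1.93, MTF1 is at 0.36 and SLC39A10 at −0.35.

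The genes differed in how far the 3-NP libraries spread. The highest was 2.97 times the lowest for MT1X, 1.78 times for MT1E and 1.08 times for MT2A. Among the 5877 genes tested with a 3-NP mean of at least 5 FPKM the median was 1.29. A spread as wide as that of MT1X was found in 1.17% of them, as wide as that of MT1E in 9.75% and as wide as that of MT2A in 93.9%. SLC30A1 spread 1.52 times, which 21.8% of those genes matched or passed, and SLC39A10 1.41 times. MT1X and MT1E thus shared a low 3-NP replicate 1, at which MT2A, their neighbour in the cluster, was only slightly lower.

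Over all metallothionein genes and pseudogenes in the files, reads came to 0.0603% and 0.0744% of the library in controls and to 0.226%, 0.249% and 0.254% with 3-NP. MT2A gave most of them in each library. Its share was 86.7% and 88.6% in controls and 94.5%, 91.0% and 90.8% with 3-NP, with 95% Wilson intervals no wider than 86.1 to 87.3. The share of MT1E was 13.1% and 11.2% in controls and 4.74%, 7.37% and 7.51% with 3-NP. MT1E thus made up less of the metallothionein RNA in each 3-NP library than in either control, while its own level was higher. MT1X went from 0.00885% and 0% (up to 0.0289% by the Wilson interval) to 0.479%, 1.27% and 1.26%. MT2A had 6.61 and 7.91 times the reads of MT1E in controls and 20.0, 12.3 and 12.1 times with 3-NP.

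**Figure D4:**
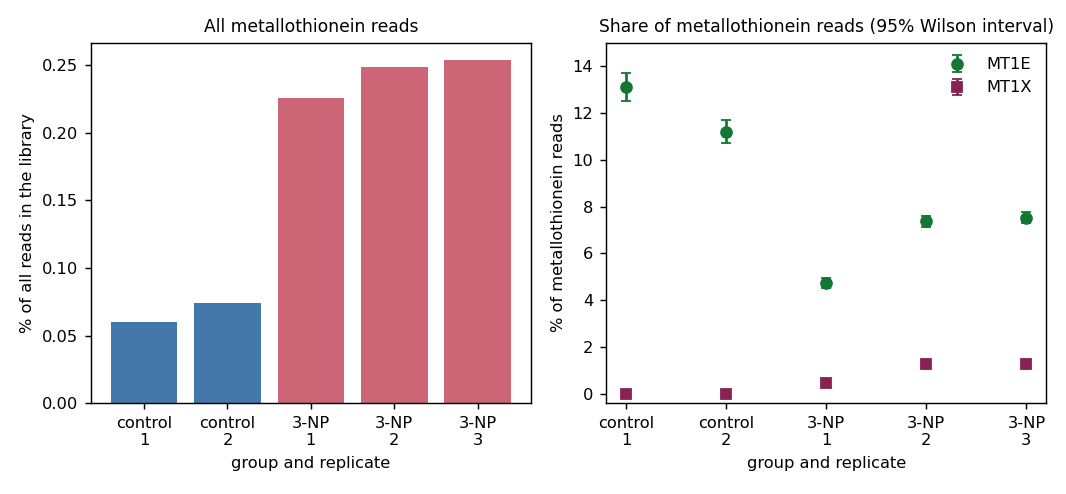
Left, reads of all metallothionein genes and pseudogenes as a percent of all reads (y axis) in each library, control in blue and 3-NP in red. Right, the percent of those reads from MT1E and MT1X with 95% Wilson intervals, where MT1E is at 13.1% and 11.2% in controls and between 4.74% and 7.51% with 3-NP, and MT1X is at most 0.00885% in controls and between 0.479% and 1.27% with 3-NP.

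Set in order by mean FPKM in the control libraries, MT2A at 455 was followed by MT1E at 77.2, SLC30A1 at 20.5, SLC39A10 at 9.47, MTF1 at 3.42 and MT1F at 0.407. MT1A, MT1X and MT1G had 0 or 1 read in each control and cannot be ordered. With 3-NP, MT1X at 14.0 FPKM came next after SLC30A1 at 31.4, but its SD of 6.87 leaves it overlapping SLC39A10 at 7.22 ± 1.25 in replicate 1. The FPKM values divide by the union of all annotated exons, which for MT1X is 1773 bases and for MT2A 1299 bases, the whole span of each gene. Their principal transcripts have 450 and 786 bases. Divided by the principal transcript, MT1X in 3-NP cells comes to 55.3 FPKM, above SLC30A1 at 31.4, and MT2A to 2843. Ratios between groups do not depend on that length.

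Metallothionein transcripts resemble each other, and how reads with several positions were counted is not given in the sources used here. Of the stretches of 50 bases in the principal transcript of MT1X 45.1% occur in transcripts of other genes, most of them in AC026461.1, which overlaps MT1X on the same strand. For MT1G the share was 20.2%, for MT1A 5.76%, for MT1E 5.34%, for MT2A 4.88% and for MT1F 3.59%. With 100 bases only MT1X had any, at 19.1%. The levels of MT1X and MT1G are therefore the least certain, while SLC30A1 and SLC39A10 shared no stretch of 50 bases with another gene.

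Other metallothioneins with a row in the files numbered 10, of which 3 passed the filter and were called higher, against 15.5% of all genes. MT3 and MT1DP passed it only through the 3-NP libraries, which forces a difference, so their values are given with no p and the count supports nothing. MT3, a metallothionein best known from brain, went from 0.0871 and 0.214 FPKM to 0.778, 1.25 and 2.08 FPKM. Its ratio of reads at equal depth, 142 against 10, was 9.22 (exact 95% interval 4.87 to 19.6). That interval pools the libraries of a group and covers counting error only, so it is no test. The pseudogene MT2P1, which shares sequence with MT2A, went from 1.46 and 2.14 to 6.66, 6.74 and 11.3 FPKM (limma adjusted p = 0.00230). These levels rest on 5 and 7 reads in controls and 23, 23 and 39 with 3-NP. Its share of metallothionein reads was 0.0442% and 0.0527% in controls and 0.0540%, 0.0495% and 0.0816% with 3-NP. Whether MT2A reads were counted for it was not tested, so its p may not be independent of MT2A. MT1DP, a pseudogene within the cluster, was at 0 in both controls and at 1.94, 0.842 and 1.11 FPKM with 3-NP. MT1B and MT1H had no read in controls and 9 and 15 reads in all with 3-NP, and were not tested.

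The remaining zinc transporters were taken as whole families. Of 23 listed genes 16 could be tested, and 2 were called higher and 4 lower, with a median change of −0.05 against −0.11 over all genes. Over all genes tested 15.5% were called higher and 25.2% lower, and the families' counts are close to those shares. Among genes of the SLC30 family, most of which move zinc out of the cytosol, 1 of 6 was called in each direction. SLC30A3, which loads zinc into synaptic vesicles, went from 0.143 and 0.0563 to 1.75, 1.30 and 1.63 FPKM. It passed the filter only through the 3-NP libraries, so its call, 1 of the 2 higher, is forced and no p is given. SLC30A6, which acts in the secretory pathway, fell from 9.77 and 7.68 to 3.78, 4.02 and 2.31 FPKM (log2 change −1.17 ± 0.22 SE, limma adjusted p = 0.00548, and 0.0523 without control replicate 1). SLC30A9 was at 11.6 ± 1.86 and 13.4 ± 2.81 FPKM and was not called.

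Of 10 tested importers of the SLC39 family, which bring zinc into the cytosol, 3 were called lower and 1 higher, near the 25.2% and 15.5% of all genes, with SLC39A10 itself not counted. SLC39A13, a transporter of the secretory pathway, fell from 29.9 and 37.0 to 18.7, 17.4 and 17.6 FPKM (limma adjusted p = 0.00421). SLC39A7, which releases zinc from the endoplasmic reticulum, fell from 85.6 and 100 to 53.8, 54.3 and 62.6 FPKM (limma adjusted p = 0.0100, and 0.0949 without control replicate 2). SLC39A1, an importer of the plasma membrane, fell from 41.4 ± 2.90 to 26.8 ± 3.26 FPKM (limma adjusted p = 0.0170, but 0.0751 and 0.122 without control replicate 1 and 2). SLC39A14, which carries zinc and also iron and manganese, was higher, at 31.9 ± 4.08 against 49.7 ± 7.77 FPKM (limma adjusted p = 0.0292). That call was absent in 6 alternatives, with adjusted p from 0.0593 with the replicate block to 0.189 without control replicate 2. SLC39A6, the closest relative of SLC39A10, was at 31.9 ± 3.10 and 26.3 ± 3.83 FPKM and was not called, nor was SLC39A9 at 13.1 ± 1.97 and 16.1 ± 1.87 FPKM.

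**Figure D5:**
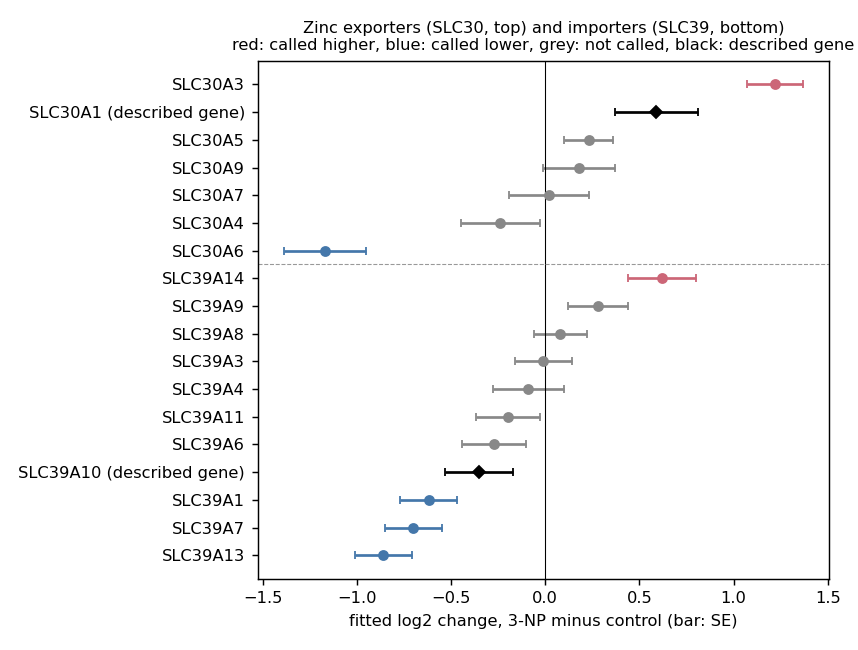
Fitted log2 change on log2(FPKM + 1), 3-NP minus control, with its SE (x axis) for each tested zinc exporter (SLC30, above the dashed line) and importer (SLC39, below it). SLC30A1 is at 0.59 and SLC39A10 at −0.35 (black diamonds, no test), with 2 other transporters called higher (red), 4 called lower (blue) and the rest not called (grey).

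Among 5 further genes known as MTF1 targets 1 was called higher and 1 lower, against 15.5% and 25.2% of all genes. The growth factor PGF went from 0.00894 and 0.0376 to 0.888, 1.08 and 1.36 FPKM, and passed the filter only through 3-NP replicates 2 and 3, so its call is forced and no p is given. Mitochondrial thioredoxin reductase TXNRD2 was at 5.73 ± 0.632 and 4.01 ± 0.287 FPKM (limma adjusted p = 0.0478, and 0.0623 to 0.280 in the 10 alternatives in which it was not called). The selenoprotein genes SELENOH and SELENOW were not called, at 13.6 ± 4.71 against 15.6 ± 1.27 FPKM and at 13.2 ± 2.24 against 12.1 ± 0.912 FPKM. SLC40A1 was at 1.12 and 1.05 FPKM in controls and at 2.13, 1.46 and 1.25 FPKM with 3-NP. Its log2 change of 0.31 ± 0.18 (SE) was not called.

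The genes whose levels followed MT2A most closely were sought among 3734 protein-coding genes with a mean of at least 10 FPKM, by Pearson's r of log2(FPKM + 1) over the 5 libraries. NAB2, a corepressor of EGR factors, had r = 0.9997, the glutaredoxin gene GLRX 0.9995, and RGS10, TTC7A and TAF12 0.9989 each. For MT1X they were CCDC28A (0.9994), the transcription factor gene ETS2 (0.9986), PLEK2 (0.9982), CHMP1B (0.9981) and the protease inhibitor gene TFPI2 (0.9980). TFPI2, like MT1X, was far lower in 3-NP replicate 1, at 12.7 FPKM, than in replicates 2 and 3, at 46.7 and 52.0 FPKM. With 5 libraries in 2 groups high values are common, since 84 genes reached 0.99 with MT2A and 35 with MT1X, so the names describe likeness of pattern over these libraries only.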

How the data were processed

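RNA, extracted with TRIzol and made into stranded mRNA libraries per the labels' protocols, came from 2 control and 3 3-NP samples, grouped by the sample titles. Per the submitters' processing notes, bcl2fastq 2.17, Trimmomatic 0.39, HISAT2 2.1 and GRCh38 (hg38) were used. For the counting tool, its annotation and its use of strand, the entry is "not given in the sources used here". The deposited values carry no unit in the files and were taken as FPKM, because value times exon-union length (GENCODE 29) gave a whole number of reads, within 0.05 read, for 93.64% to 93.9% of low values. That step gave the depths and the reads quoted. A total of 3 reads was taken as the limit that a value of 0 allows. Antisense and overlapping genes cannot be separated with certainty.

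Differences across all genes were fitted with limma 3.58.1 (R 4.3.3) on log2(FPKM + 1) values, allowing the variance to follow the mean. A gene entered if 2 or more libraries had at least 1 FPKM, all 5 libraries were used, and calls followed Benjamini-Hochberg adjustment over all genes at 0.05. The fit was tested on simulated data with known changes. Those data had far fewer changed genes than were called here and the same extra spread for every gene. They therefore do not show how the fit does on data like these. The genes described and the lists were chosen with earlier results of these data known, so no p is given for the genes described. A p given for a list gene comes from the fit over all genes. For the same reason it is a description and no test of a gene chosen beforehand. Other genes are named where they were called or had a mean of at least 10 FPKM. Genes below that are named only to complete a family or list. By likeness of pattern the 5 closest genes to MT2A and to MT1X are named too. Motifs and shared sequence were counted with Python 3.11.15. Alternatives were another pseudocount, 2 other filters, 3 other scalings, removal of the length trend, a block for the replicate number, and leaving out every library in turn.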

Additional observations from a re-analysis of the deposited data

How the results depend on the processing

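Every metallothionein, MTF1, SLC30A1 and SLC39A10 past the filter kept its direction in all 13 alternatives. Nothing is read from that, since the genes were picked from this comparison. MT1A and MT1X also passed the filter only through the 3-NP libraries, which fixed their direction. With a pseudocount of 0.1 the log2 change was 4.18 for MT1A and 6.79 for MT1X. With the length trend removed it was 1.65 for MT1A and 0.52 for MTF1, and after quantile normalization 1.77 for MT2A. Leaving out 1 library gave 1.70 to 1.88 for MT1A and 1.76 to 2.09 for MT2A, 0.35 (without control replicate 2) to 0.83 (without control replicate 1) for SLC30A1, 0.23 (without control replicate 2) to 0.49 for MTF1 and -0.50 to -0.21 (without control replicate 1) for SLC39A10. The count of 4833 called genes became 1814 to 5254 with a library left out, the count higher 752 to 2147 and the count lower 1062 to 3107. Lower calls made up 61.9% of calls, and 51.2% with median-of-ratios scaling, 52.0% after quantile normalization and 51.8% with the length trend removed. Called zinc transporters higher in 3-NP numbered 1 instead of 2 without a low-value filter, with the stricter filter and with the replicate block, 3 with the length trend removed, and 1 to 2 with a library left out, where those lower numbered 2 to 4. With the core TGCACNC alone 12.1% of promoter windows had a match and with TGCGCNC alone 20.0%, and the longer metal response element was not searched. Log2 changes that were not called and turned sign were those of BAG3, at -0.14 to 0.27 with a library left out, SELENOH, at -0.11 to 0.55, and SELENOW, at -0.28 to 0.05 and at 0.01 with the length trend removed. The labels do not say that replicate numbers pair the libraries. Deviations of same-numbered libraries from their group means correlated at 0.157 and −0.351. With 2 controls, the deviations of 1 are those of the other with the sign turned. These correlations therefore cannot tell whether the libraries were paired. The replicate block called 4347 genes. Genes at fewer than 3 reads in a library are below what this depth can tell apart.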

Other observations

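Of 12 stress genes that metals and damaged proteins induce, all tested, 6 were called higher and 2 lower, against 15.5% and 25.2% of all genes. Their median log2 change was 0.47 against −0.11 over all genes. Nothing is read from that count or median, since the list was chosen with earlier results of these data known. The chaperone HSPA6 went from 0.450 and 0.544 to 3.82, 6.99 and 9.05 FPKM but passed the filter only through the 3-NP libraries, so its call is forced. The chaperone partner DNAJB1 went from 40.2 and 45.7 to 236, 188 and 196 FPKM (limma adjusted p = 0.000287). HSPA1A and its near-identical copy HSPA1B, whose reads may be split between them, rose 4.01 and 4.43 times (limma adjusted p = 0.00702 and 0.000736). Heme oxygenase HMOX1 and GCLM, of glutathione synthesis, were also called higher. TXNRD1 and the cystine transporter SLC7A11 were called lower, at 376 ± 42.1 against 217 ± 27.2 FPKM and 5.82 ± 1.67 against 2.90 ± 1.04 FPKM. HSPB1, HSPH1, BAG3 and SQSTM1 had log2 changes of −0.28, −0.24, 0.12 and 0.41 and were not called, but SQSTM1 was without 3-NP replicate 1 (limma adjusted p = 0.0222). GCLM was not called in 7 alternatives, SLC7A11 in 5, and TXNRD1 and HSPA1A in 1, without control replicate 1.

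Of 9 copper handling genes tested 2 were called higher and 0 lower, against 15.5% and 25.2% of all genes. The copper importer SLC31A1 went from 14.7 and 12.4 to 24.1, 25.6 and 26.5 FPKM (limma adjusted p = 0.00346), and the copper chaperone ATOX1 from 8.80 and 12.6 to 17.3, 17.0 and 18.4 FPKM (limma adjusted p = 0.0169, and 0.155 without control replicate 1). COX17, SOD1 and COMMD1 had log2 changes of 0.57, 0.16 and −0.40 and were not called, though COX17 was called in 5 of 13 alternatives (limma adjusted p 0.0272 to 0.0486) and COMMD1 in 2 (0.0208 and 0.0302). Of 8 glucocorticoid targets tested 4 were called higher, ERRFI1, DUSP1, SGK1 and PER1, with log2 changes of 3.45, 0.95, 0.92 and 0.84. CEBPD was called lower at −1.05, and over all genes 15.5% were called higher and 25.2% lower. Nothing is read from the counts of copper handling genes and glucocorticoid targets, since both lists were chosen with earlier results of these data known. CEBPD was at 2.15 and 3.91 FPKM in controls and at 1.22, 0.763 and 0.756 FPKM with 3-NP. Of the 3-NP libraries only replicate 1 reached 1 FPKM, so CEBPD passed the filter through the controls, which favours a lower call. TSC22D3, which glucocorticoids induce in many cells, was at 35.0 ± 0.490 against 42.6 ± 8.67 FPKM and was not called. FKBP5 and KLF9, the other targets tested, had log2 changes of 0.08 and -0.01 and were not called either. PER1 and SGK1 were not called with either control left out or without a low-value filter, DUSP1 without control replicate 1 and CEBPD without control replicate 2 or a low-value filter.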
